A study of Arabidopsis thaliana with 12 samples.

Results

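Leaf RNA of the tpt-2 mutant of Arabidopsis thaliana was compared with that of Col-0, the reference accession that carries a working TPT gene, after 18 h in strong light. Each genotype had 3 libraries at 18 h, so that 6 of the 12 libraries of the study entered the comparison. The genes kept had to average 1 FPKM or more (fragments per kilobase of transcript, scaled to library depth) over these 6 libraries. They were 17586 of 32833 genes: 17481 nuclear genes, 97 chloroplast-encoded loci and 8 mitochondrion-encoded loci, with the organelle loci counted apart. In the 0.1 FPKM below the limit lay 219 nuclear genes, and in the 0.1 FPKM above it 189.

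All plants were 21 d old, had been raised on soil in short days (10 h light), and were put under 500 µmol photons m-2 s-1 when a night ended. The Col-0 and tpt-2 leaves compared here were sampled after 18 h of that treatment, and leaves of both genotypes sampled after 9 h formed the other 6 libraries. The series asks how a leaf without the translocator responds to a shift into strong light. The labels name 1 mutant allele, with no other allele or complemented line among these samples, and plants sampled ahead of the shift are not among them. A difference that was there before the shift cannot be told apart from one that arose in strong light.

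TPT is the triose phosphate/phosphate translocator of the chloroplast inner envelope. It hands the triose phosphates of the Calvin cycle to the cytosol for sucrose synthesis and takes inorganic phosphate back in return. When this export is blocked, photosynthate is diverted into starch and leaves the plastid as breakdown sugars. In Arabidopsis, sugars and strong light are known to raise anthocyanin pigment synthesis and to lower transcripts of the light-harvesting antenna.

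The 6 libraries, named by their replicate number in the labels (the first, the second and the third), held 12.3 M to 25.7 M assigned fragments, the deepest being the first Col-0 library, and this depth was recovered from the steps between low FPKM values. Leaf mesophyll genes were the most abundant of the markers, with sums of 30198 to 35053 FPKM, and root hair markers summed to at most 0.187 FPKM and floral markers to at most 0.267 FPKM. The 3 seed markers summed to 7.48 FPKM in the second Col-0 library and were at 0 in all 3 tpt-2 libraries. Guard cell markers summed to 27.2 to 29.1 FPKM in Col-0 and 32.7 to 37.5 FPKM in tpt-2, all 5 being detected in both. Phloem companion cell markers summed to 140 to 164 FPKM and 123 to 126 FPKM, all 3 being detected. In whole leaves, fewer cells of a type and less RNA per cell cannot be told apart. Within tpt-2, the third library stood apart: Pearson's r over genes was 0.977 and 0.971 with the other two, which had 0.982 between them, against 0.988 to 0.991 within Col-0. Genes are not independent replicates, so these r describe the libraries only.

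The mutated gene was checked before any other. TPT (AT5G46110, chromosome 5, 18697235 to 18700900, plus strand) stood at 465, 436 and 406 FPKM in Col-0 replicates 1 to 3 and at 2.76, 2.86 and 3.15 FPKM in tpt-2. Every tpt-2 library was far below every Col-0 library. The labels do not say what kind of mutation tpt-2 carries. On the log2 scale tpt-2 stood at -6.80 relative to Col-0 (SE 0.129, limma adjusted p 3.59e-11), where all fold changes are differences of mean log2(FPKM + 1) and understate the change of low genes.

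At an adjusted p under 0.05, 477 nuclear genes were called, which is 2.73% of those tested. tpt-2 was higher in 310 of them (1.77%) and lower in 167 (0.955%). The rises were many and mostly small: 42 of 310 reached 2-fold and the median size was 0.58 on the log2 scale. The falls were fewer and deeper, with 65 of 167 past 2-fold and a median size of 0.81. All 477 had groups that did not overlap, as did 28.6% of all nuclear genes tested. The median of all nuclear genes was itself 0.09, and 68.6% of them had a positive log2 value. Median-ratio scaling moved that median to 0.00 and turned the split into 126 higher and 331 lower, and quantile normalization moved it to -0.02 with 118 higher and 251 lower. Single libraries mattered as well. The count was 96 without the second Col-0 library, 93 without the third Col-0 library, 151 without the second tpt-2 library, 236 without the first Col-0 library and 295 without the first tpt-2 library, and 78 genes (27 higher, 51 lower) were called in each of the 6 fits that left out 1 library.

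**Figure D1:**
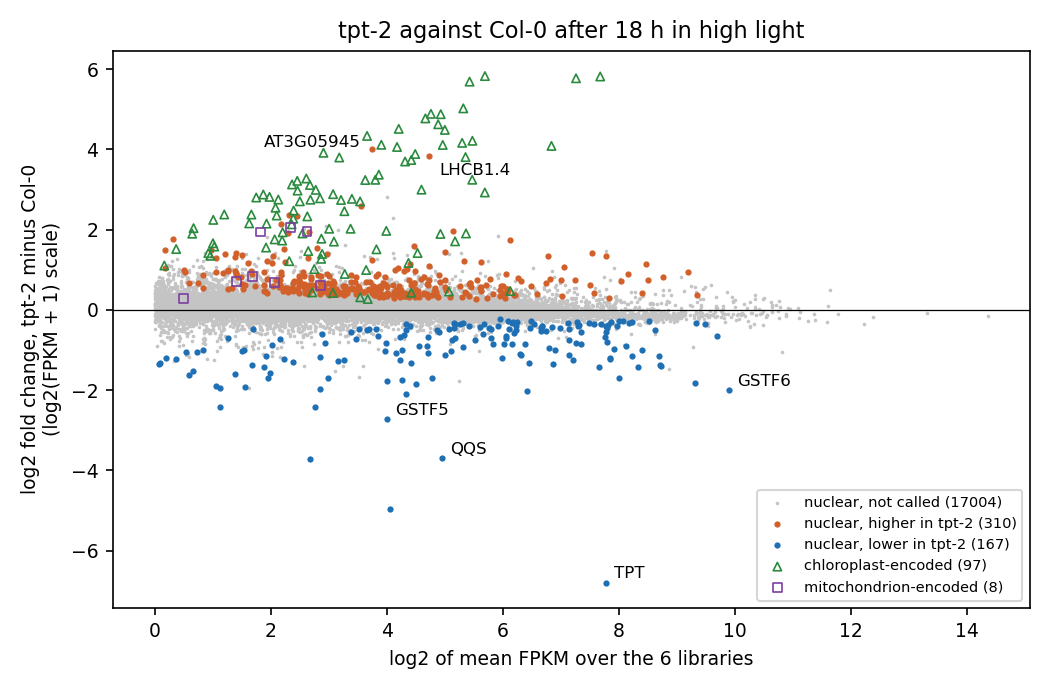
Log2 fold change between tpt-2 and Col-0 at 18 h (vertical, log2(FPKM + 1) scale) against log2 of the mean FPKM over the 6 libraries (horizontal), with 1 point per gene. The 310 nuclear genes called higher lie mostly close to 0, the 167 called lower reach down to TPT at -6.80, and the 97 chloroplast-encoded loci (triangles) all lie above 0. Loci near 0 in Col-0 could enter through tpt-2 alone.

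Of the 24 lists, that of late anthocyanin genes had the largest share of called members. Its enzymes convert flavonoids into coloured, sugar- and acyl-decorated anthocyanins and load them into the vacuole. Of 11 late anthocyanin genes, all of them measured, 10 were called lower and 0 higher, against 0.955% and 1.77% of all nuclear genes tested. The list median was -1.12, which is -1.21 relative to the median of all nuclear genes. In all 11 the 3 tpt-2 values lay below the 3 Col-0 values. The number still called fell to 6 without the second Col-0 library and to 5 without the third Col-0 library. It was 7 or 8 without any other library.

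DFR (AT5G42800), dihydroflavonol reductase and the entry into this branch, had 577, 610 and 654 FPKM in Col-0 and 254, 227 and 219 FPKM in tpt-2. Every mutant library lay below every Col-0 library, by a log2 fold change of -1.39 (SE 0.225, limma adjusted p 0.00845). Its adjusted p was 0.0502 without the third Col-0 library and spanned 0.000185 to 0.0502 over the alternatives. LDOX, the next enzyme, had 577, 584 and 660 FPKM against 265, 226 and 210 FPKM (-1.38, SE 0.172, limma adjusted p 0.0016). The acyltransferase 3AT2 had 115, 125 and 138 FPKM against 57.7, 52.3 and 39.6 FPKM (-1.34, SE 0.164, limma adjusted p 0.00152). Its counts are less certain, since 26.6% of its 75-base stretches also occur in 3AT1, which was called too at -1.10. The glucosyltransferase UGT75C1 had 199, 202 and 225 FPKM against 98.9, 84.5 and 79.1 FPKM (-1.25, SE 0.185, limma adjusted p 0.00525), and 27.1% of its exon length is covered by exons on the opposite strand. In each of these genes the third tpt-2 library was the lowest library, as in all 11 genes of the list, against 34.8% of all nuclear genes. The exception to the calls was BGLU10, an anthocyanin glucosyltransferase, at -0.65 (limma adjusted p 0.118).

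**Figure D2:**
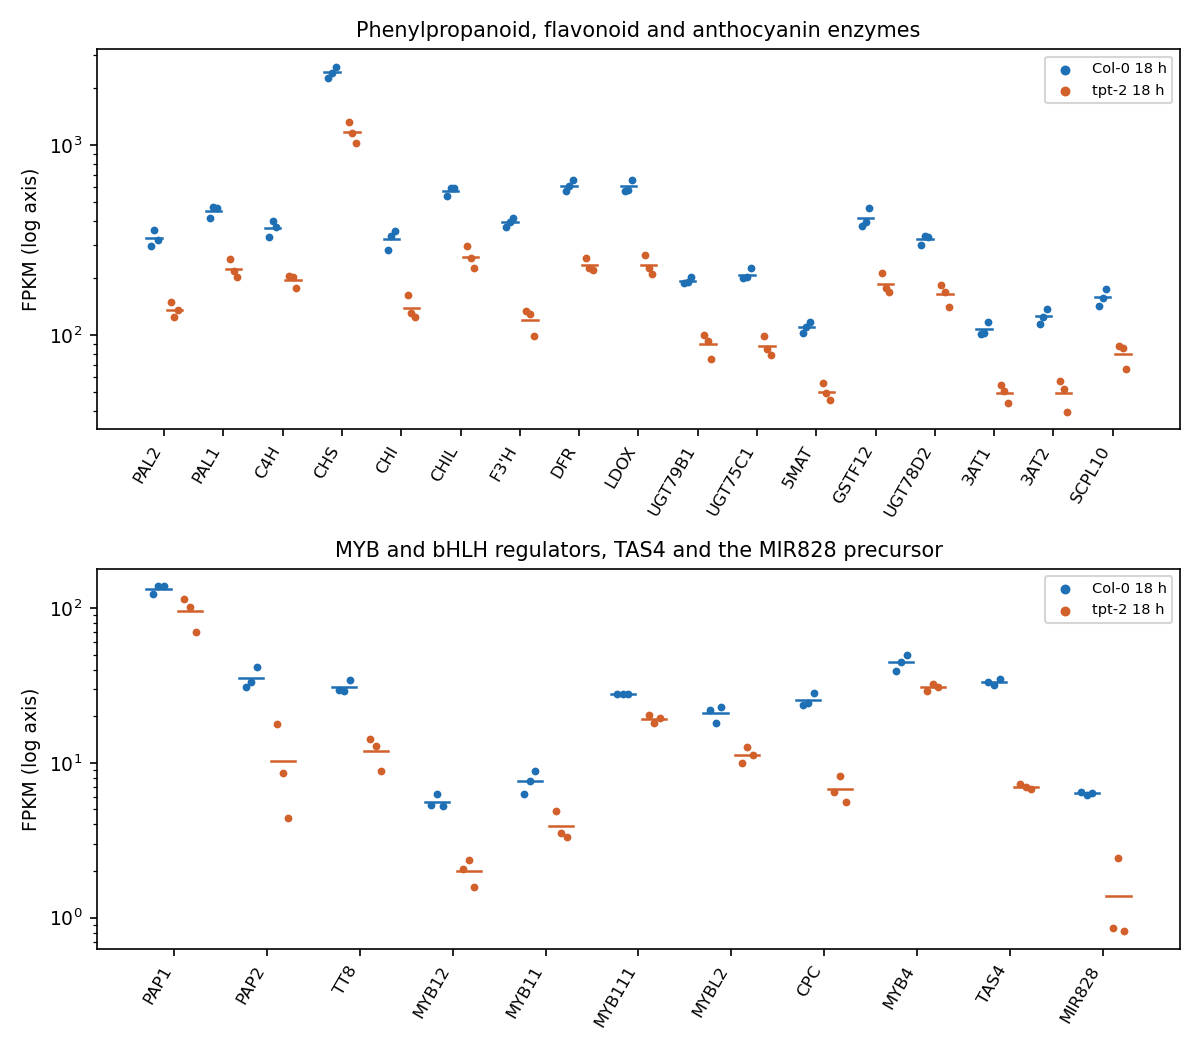
FPKM (log axis) of flavonoid and anthocyanin enzymes (top) and of their regulators with TAS4 and the MIR828 precursor (bottom) in the 3 Col-0 and 3 tpt-2 libraries at 18 h; points are libraries and bars group means. The tpt-2 points of the 17 enzymes drawn lie below the Col-0 points throughout, and so do those of TAS4 at 6.80 to 7.26 against 32 to 34.7 FPKM.

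Phenylpropanoid and early flavonoid genes feed this branch. Of 13 phenylpropanoid and early flavonoid genes, 11 were measured. Of these, 6 were called lower and 0 higher, against 0.955% and 1.77% of all nuclear genes tested. The list median was -1.01 (-1.10 against the median of all nuclear genes). F3'H, the hydroxylase that directs flavonoids towards cyanidin pigments, had 371, 394 and 416 FPKM in Col-0 and 133, 129 and 99.2 FPKM in tpt-2. The mutant group lay wholly below, by -1.71 (SE 0.268, limma adjusted p 0.00725). PAL2, phenylalanine ammonia-lyase at the entry of the pathway, had 295, 357 and 318 FPKM against 149, 125 and 135 FPKM (-1.24, SE 0.157, limma adjusted p 0.00171). Chalcone isomerase (CHI) had 281, 332 and 352 FPKM against 163, 130 and 125 FPKM (-1.20, SE 0.192, limma adjusted p 0.008).

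CHIL, which assists chalcone synthase, had 539, 594 and 593 FPKM against 296, 255 and 226 FPKM (-1.16, SE 0.258, limma adjusted p 0.0368). Its call ended in each of the 6 fits that left out 1 library, at 0.0582 to 0.135, and its adjusted p spanned 0.00124 to 0.135 over all alternatives. Chalcone synthase itself, CHS, had 2258, 2416 and 2600 FPKM in Col-0 and 1330, 1156 and 1031 FPKM in tpt-2. These groups did not overlap, but at -1.05 (SE 0.262) the limma adjusted p was 0.0512. In the fit of the 6 libraries of 18 h alone it was 0.00278, and it spanned 0.00278 to 0.18 over the alternatives. UGT78D1, a flavonol rhamnosyltransferase outside the anthocyanin branch, had -0.20 (limma adjusted p 0.358). F3H (at most 0.381 FPKM) and UGT89C1 (0 in all 6 libraries) were under the limit of 1 FPKM. Whether these genes were silent or their fragments went uncounted was not tested. The list kept 3 calls without the second Col-0 library or without the third Col-0 library, and 4 without the first Col-0 library, the second tpt-2 library or the third tpt-2 library.

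Some regulators of these genes were called and others were not. MYB and bHLH proteins with the WD40 protein TTG1 form the complex that switches on late anthocyanin genes, and MYB11, MYB12 and MYB111 switch on the early steps and flavonol genes. Of 10 activators measured, 3 were called lower and 0 higher, with a median of -0.51. Of all nuclear genes tested, 0.955% were called lower. PAP2 (MYB90), an anthocyanin MYB, had 30.8, 33.5 and 41.7 FPKM in Col-0 and 17.9, 8.55 and 4.43 FPKM in tpt-2. The groups did not overlap, and the tpt-2 libraries spread widely among themselves (-1.86, SE 0.346, limma adjusted p 0.0173). Its adjusted p was 0.0676 without the second Col-0 library, 0.0923 without the third Col-0 library and 0.0636 without the second tpt-2 library, within a span of 0.0017 to 0.0923.

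TT8, the bHLH partner, had 29.7, 29.2 and 34.3 FPKM against 14.3, 12.9 and 8.85 FPKM (-1.32, SE 0.176, limma adjusted p 0.00247). MYB12 had 5.36, 6.25 and 5.25 FPKM against 2.06, 2.36 and 1.57 FPKM (-1.15, SE 0.160, limma adjusted p 0.00349), and with a pseudocount of 0.1 its adjusted p was 0.0647, the highest of a span from 0.00146. PAP1 (MYB75), the most abundant anthocyanin MYB, had 124, 138 and 138 FPKM against 115, 101 and 70.2 FPKM. Its groups did not overlap either, but the difference of -0.51 (SE 0.187) did not pass the test (limma adjusted p 0.154). TTG1 was at 0.08 (limma adjusted p 0.722), and the bHLH genes GL3 and EGL3 were at -0.14 each. Among 8 repressors, CPC alone was called, against 2.73% of all nuclear genes tested. CPC, a small MYB that competes for the bHLH partner, had 23.6, 24.3 and 28.3 FPKM against 6.51, 8.26 and 5.61 FPKM (-1.77, SE 0.200, limma adjusted p 0.00103). MYBL2, another such repressor, had -0.84 (limma adjusted p 0.0617) and MYB4 -0.52 (limma adjusted p 0.0853).

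The non-coding transcript TAS4 and the precursors of 2 microRNAs with targets among the flavonoid MYB genes were called lower. The microRNA miR828 cuts TAS4, and 1 of the small RNAs made from TAS4 targets PAP1, PAP2 and MYB113. miR858a targets the flavonol MYB genes. The mature sequences below, read from the TAIR10.1 genome at the RefSeq coordinates and written as DNA, are shown because their precursors fell in tpt-2. Capitals mark the seed, bases 2 to 8.
miR828: tCTTGCTTaaatgagtattcca
miR858a: tTTCGTTGtctgttcgacctt
The mature miR828 lies at chr4:13847020-13847041 on the plus strand, and miR858a at chr1:26773695-26773715 on the minus strand. The best matching sites in the RefSeq transcripts are shown next, with capitals for bases complementary to the microRNA.
TAS4 for miR828: TGGAATACTCATTTgAGCAAGA
MYB113 for miR828: TGGAAcACTCATTTgAGtAAGA
PAP1 for miR828: TGGAAcACTCATcTgAGtAAGA
MYB12 for miR858a: cAGGgaGAACAGACAACGAAA
MYB111 for miR858a: cAGGaaGAACAGACAACGAAA
The TAS4 site pairs at 21 of 22 bases, MYB113 at 19 of 22 and PAP1 at 18 of 22. The MYB12 and MYB111 sites pair at 18 of 21 each, all of them with the whole seed of miR858a. These matches are descriptions of sequence and show no cutting in these leaves.

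TAS4 (AT3G25795) had 33.1, 32 and 34.7 FPKM in Col-0 and 7.26, 7.01 and 6.8 FPKM in tpt-2. Both groups were tight and far apart, at -2.10 (SE 0.266, limma adjusted p 0.00171), among the 12 largest falls of all nuclear genes. The precursors MIR828 and MIR858a lie outside the naming rule and were picked after their values were seen, as the 2 microRNA genes called among 55 tested. MIR828 had 6.52, 6.19 and 6.34 FPKM in Col-0 and 0.852, 2.45 and 0.815 FPKM in tpt-2, which rest on 32, 16 and 15 fragments against 2, 6 and 2. The precursor stood at -1.70 (SE 0.278, limma adjusted p 0.00866). With a pseudocount of 0.1 its adjusted p was 0.107, the highest of a span from 0.00419. MIR858a had 5, 8 and 4 fragments in Col-0 against 1, 0 and 0 in tpt-2, a ratio of 0.0799 with an exact 95% counting interval of 0.00191 to 0.51. Its call (limma adjusted p 0.027) ended without the second Col-0 library (0.107), the third Col-0 library (0.0978), the second tpt-2 library (0.0902) or the third tpt-2 library (0.0595), and spanned 0.0234 to 0.108. Poly-T purified libraries measure the precursor transcripts and not the mature small RNAs.

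Light-harvesting genes had the highest median of the 24 lists. The antenna proteins of photosystems I and II bind most of the leaf's chlorophyll and are encoded by the nuclear LHCA and LHCB families. Of 20 members measured, 6 were called higher and 0 lower, against 1.77% and 0.955% of all nuclear genes tested. The list median was 0.71 (0.62 against that of all nuclear genes). The 6 were LHCB1.1, LHCB1.2, LHCB1.4, LHCB2.2, LHCB3 and LHCA4. Their levels in Col-0 were also graded, highest in the first library and lowest in the third. Among the 20 genes the third tpt-2 library was the highest of its group in 17 and the first the lowest in 15. The list kept 1 call without the second Col-0 library, without the third Col-0 library or without the second tpt-2 library, and 2 without the third tpt-2 library.

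LHCB1.4 (AT2G34430, chromosome 2, 14524607 to 14525918, plus strand), a minor copy of the main antenna protein, had 4.57, 2.53 and 0.985 FPKM in Col-0 and 28.2, 53.8 and 69.7 FPKM in tpt-2. The lowest mutant library lay several times above the highest Col-0 library, a difference of 3.83 on the log2 scale (SE 0.452, limma adjusted p 0.00114). It stayed under the threshold in every alternative, with a highest adjusted p of 0.0174. Counts of these copies are less certain, since 7.27% of the 75-base stretches of LHCB1.4, 19.1% of those of LHCB2.2, 10.4% of those of LHCB1.1 and 3.66% of those of LHCB1.2 also occur in other loci. LHCB2.2 had 52.3, 27.3 and 18.9 FPKM against 69.2, 113 and 139 FPKM (1.74, SE 0.377, limma adjusted p 0.0324). LHCB1.2 had 151, 90.8 and 67.1 FPKM against 189, 318 and 303 FPKM (1.43, SE 0.270, limma adjusted p 0.0191). LHCB1.1 had 87.5, 59.8 and 39.9 FPKM against 102, 184 and 188 FPKM (1.35, SE 0.275, limma adjusted p 0.0266). In these genes the lowest tpt-2 value was close to the highest Col-0 value. Their calls ended without the second Col-0 library (0.119, 0.0826 and 0.0938 in that order), the third Col-0 library (0.14, 0.086 and 0.106) or the second tpt-2 library (0.104, 0.0789 and 0.0969). Without the third tpt-2 library, those of LHCB2.2 (0.0789) and LHCB1.1 (0.0638) ended as well. The lowest adjusted p over the alternatives was 0.0175, 0.0078 and 0.0136.

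The dominant copy LHCB1.3 had 2926, 2608 and 2391 FPKM in Col-0 and 3297, 3579 and 4410 FPKM in tpt-2. The groups did not overlap, and the difference of 0.50 had a limma adjusted p of 0.0502. The most abundant minor antenna gene, LHCB4.1, stood at 0.13 (limma adjusted p 0.49). LHCB4.3, a copy that strong light is known to raise, stood at -0.61 (limma adjusted p 0.214). LHCB1.5 was listed at 0 in all 6 libraries, and whether it was silent or went uncounted was not tested. PORB, a protochlorophyllide oxidoreductase of chlorophyll synthesis, rose from 150, 146 and 130 FPKM to 202, 199 and 259 FPKM (0.62, SE 0.119, limma adjusted p 0.0207). GSA1, at the start of the same pathway, fell from 170, 168 and 180 FPKM to 142, 135 and 139 FPKM (-0.31, SE 0.057, limma adjusted p 0.0167). The other 9 of 11 chlorophyll synthesis genes measured were not called. Both calls ended without the second Col-0 library (0.0714 and 0.0584) or the third Col-0 library (0.103 and 0.0861), and that of GSA1 also without the second tpt-2 library (0.0671). Their adjusted p spanned 0.0153 to 0.103 and 0.00634 to 0.114.

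**Figure D3:**
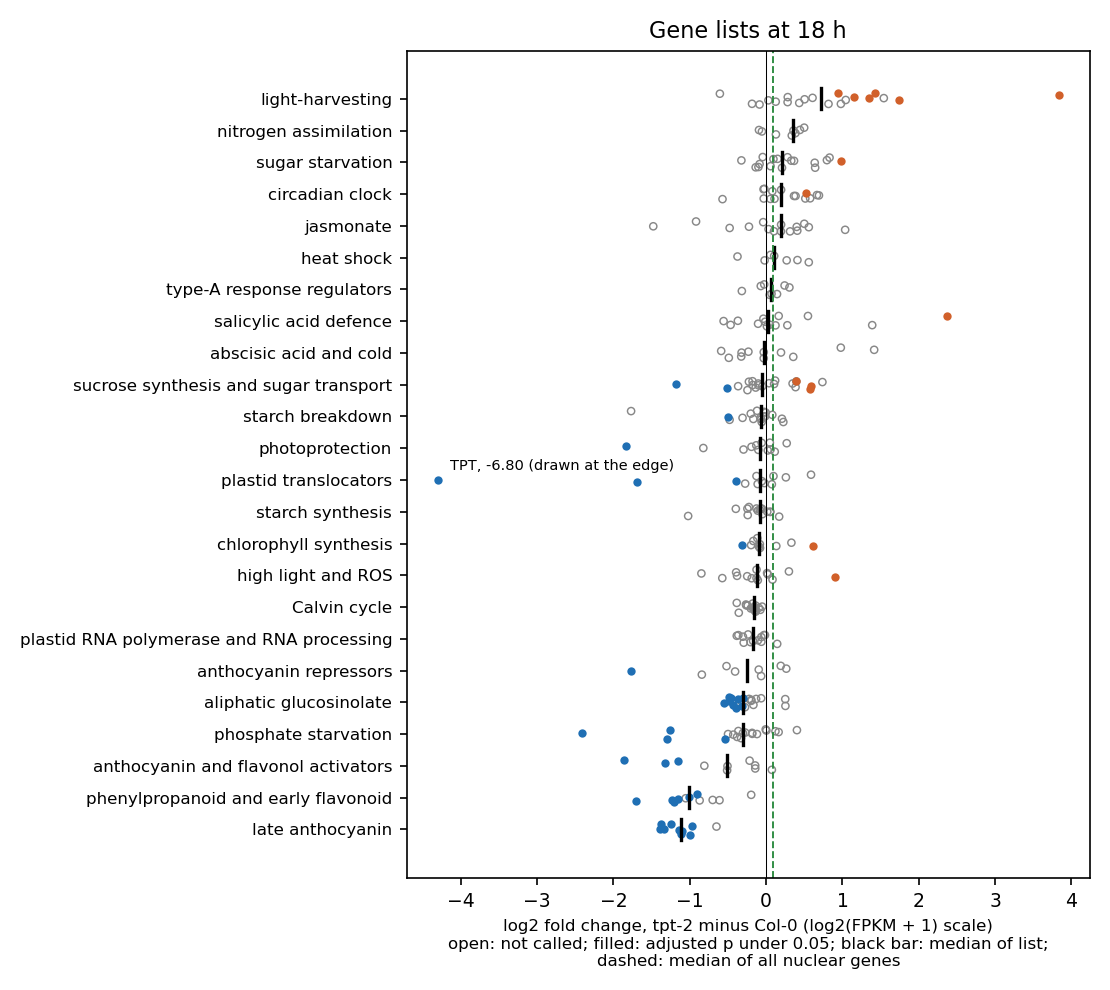
Log2 fold changes at 18 h (horizontal, log2(FPKM + 1) scale) of the measured members of 24 gene lists (vertical), with filled points for called genes, black bars for list medians and a dashed line at 0.09, the median of all nuclear genes (TPT, at -6.80, is drawn at the left edge). Late anthocyanin genes sit lowest with a median of -1.12 and light-harvesting genes highest with 0.71.

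Among 12 photoprotection genes 1 was called, against 2.73% of all nuclear genes tested. ELIP1, an early light-induced protein that guards chlorophyll during light stress, had 907, 726 and 1348 FPKM in Col-0 and 306, 361 and 176 FPKM in tpt-2. Its groups did not overlap (-1.83, SE 0.393, limma adjusted p 0.0317). The call ended in each of the 6 fits that left out 1 library, at 0.0585 to 0.141, and its adjusted p spanned 0.0174 to 0.141. Of 14 genes of the high light and reactive oxygen list, CAT3 was the 1 called, and none was called lower. This catalase rose from 230, 214 and 156 FPKM to 316, 376 and 421 FPKM (0.90, SE 0.189, limma adjusted p 0.0294). Without the second Col-0 library (0.0818), the third Col-0 library (0.127), the second tpt-2 library (0.0913) or the third tpt-2 library (0.0698) its call ended, within a span of 0.02 to 0.127. All 7 measured heat shock genes, HSP101 among them at 0.27 (limma adjusted p 0.523), were not called.

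Phosphate starvation genes are induced when cytosolic or external phosphate runs low, and TPT exchanges phosphate across the chloroplast envelope. Of 23 listed genes 19 were measured, and 4 were called lower and 0 higher, against 0.955% and 1.77% of all nuclear genes tested. The list median was -0.30 (-0.40 against that of all nuclear genes). The 4 were IPS1, MGD3, PS2 and SQD1. IPS1, a non-coding RNA that sequesters miR399, had 16.2, 12.1 and 7.89 FPKM in Col-0 and 2.7, 0.575 and 1.29 FPKM in tpt-2 (-2.41, SE 0.489, limma adjusted p 0.0254). MGD3, a galactolipid synthase, had 9.9, 8.08 and 5.5 FPKM against 3.12, 1.42 and 3.36 FPKM (-1.30, SE 0.224, limma adjusted p 0.0121). PS2, a phosphatase induced by phosphate starvation, had 18.3, 12.3 and 11.5 FPKM against 5.85, 4.4 and 5.35 FPKM (-1.25, SE 0.268, limma adjusted p 0.0311). In these 3 genes the groups did not overlap.

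SQD1, the sulfolipid enzyme, had 113, 123 and 123 FPKM against 78.5, 74.8 and 93.8 FPKM (-0.54, SE 0.123, limma adjusted p 0.0411). SPX1, the usual marker of the response, had 30.1, 26.5 and 24.6 FPKM against 24.3, 19.9 and 27.2 FPKM, which overlapped (-0.18, limma adjusted p 0.643). The calls of this list leaned on single libraries. They numbered 0 without the second Col-0 library, 1 without the first Col-0 library, the third Col-0 library or the second tpt-2 library, and 2 without the first tpt-2 library or the third tpt-2 library. Over the alternatives the adjusted p spanned 0.0105 to 0.116 for IPS1, 0.00844 to 0.0639 for MGD3, 0.00874 to 0.106 for PS2 and 0.0241 to 0.146 for SQD1. PAP14 is a purple acid phosphatase, a class of enzymes that free phosphate, was not in the list, and was among the 12 largest falls. It had 7.05, 3.41 and 1.92 FPKM in Col-0 and 0.366, 0.1 and 0.2 FPKM in tpt-2, without overlap (-1.95, SE 0.316, limma adjusted p 0.00845). With voom on recovered fragments its adjusted p was 0.0506, within a span of 0.00465 to 0.0506.

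The 250 bases before the RefSeq gene start were searched on both strands for the phosphate response element P1BS, spelled GNATATNC. A match is a description and shows neither binding nor cause. It was present in 6 of the 19 phosphate starvation genes measured (31.6%) and in 5.46% of 27443 protein-coding genes. The promoters of PAP14 (chr2:19266457-19266706, minus strand) and PS2 (chr1:27466349-27466598, minus strand) are shown as a pair of called genes that hold it, from TAIR10.1 by RefSeq coordinates, with the P1BS letters in capitals.
PAP14: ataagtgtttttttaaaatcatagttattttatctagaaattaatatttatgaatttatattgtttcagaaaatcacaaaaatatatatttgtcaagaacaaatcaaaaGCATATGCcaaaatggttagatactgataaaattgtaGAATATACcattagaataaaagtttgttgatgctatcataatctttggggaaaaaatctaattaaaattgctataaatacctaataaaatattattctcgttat
PS2: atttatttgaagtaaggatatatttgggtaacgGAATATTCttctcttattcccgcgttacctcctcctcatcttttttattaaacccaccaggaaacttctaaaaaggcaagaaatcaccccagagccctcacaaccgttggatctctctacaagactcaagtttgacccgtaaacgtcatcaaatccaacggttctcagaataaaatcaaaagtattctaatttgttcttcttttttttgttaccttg
The matches begin 141 and 104 bases before the start in PAP14 and 217 bases before it in PS2. Of the 4 called genes of the list PS2 alone held a match, and IPS1, MGD3 and SQD1 held none within this window. The other 5 genes behind the share (PPCK1, GDPD1, PLDZ2, AT4 and MGD2) were not called, and the match was present in 8.64% of all protein-coding genes called lower. The G-box, spelled CACGTG, is bound by light-signalling bZIP and bHLH factors. It was present in 3 of 11 late anthocyanin genes (27.3%), in 5 of 20 light-harvesting genes (25%) and in 6.49% of all protein-coding genes. The 3 late anthocyanin genes (DFR, UGT79B1 and SCPL10) were called lower. Of the 5 light-harvesting genes LHCA4 was called higher, and LHCB6, LHCB7, LHCB2.3 and LHCB4.1 were not called. Among protein-coding genes called lower 13% held the G-box, and among those called higher 7.52%. DFR holds it 14 bases before its start and PAP2 46 bases before. The promoter of DFR (chr5:17166033-17166282, minus strand) is shown as the entry enzyme of the late branch, with the G-box in capitals.
DFR: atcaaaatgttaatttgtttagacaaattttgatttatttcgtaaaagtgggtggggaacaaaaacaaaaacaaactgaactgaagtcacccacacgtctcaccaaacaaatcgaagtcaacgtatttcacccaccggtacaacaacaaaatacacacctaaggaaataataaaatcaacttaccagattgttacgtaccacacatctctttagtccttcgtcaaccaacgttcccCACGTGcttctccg

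Plastid translocators carry carbon, phosphate and ATP across the envelope. Of 12 plastid translocators measured, 3 were called lower, TPT among them, and 0 higher, against 0.955% and 1.77% of all nuclear genes tested. GPT2, a glucose 6-phosphate translocator of the envelope that sugars are known to induce, had 34.1, 49.3 and 43.8 FPKM in Col-0 and 18.5, 10.3 and 9.57 FPKM in tpt-2. The groups did not overlap (-1.69, SE 0.314, limma adjusted p 0.0173). Its call ended without the second Col-0 library (0.0818), the third Col-0 library (0.0822) or the second tpt-2 library (0.0703), within a span of 0.0105 to 0.0822. NTT2, which carries ATP into the plastid, had 109, 113 and 130 FPKM against 88.8, 87.5 and 89.1 FPKM (-0.40, SE 0.097, limma adjusted p 0.0487). That call ended in each of the 6 fits that left out 1 library, at 0.0664 to 0.187, within a span of 0.0241 to 0.187. The list kept 1 call, that of TPT, without the second or the third Col-0 library or the second tpt-2 library. The maltose exporter MEX1 and the glucose exporter PGLCT, the routes of starch breakdown products, stood at 0.07 (limma adjusted p 0.609) and 0.26 (limma adjusted p 0.249). PPT2, a phosphoenolpyruvate translocator, had 18.8, 19 and 19.6 FPKM against 32.6, 27.6 and 27.8 FPKM, without overlap, a difference of 0.59 that was not called (limma adjusted p 0.0617).

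Genes of carbon fixation and starch gave few calls. All 17 Calvin cycle genes measured had negative values, their median being -0.15 (-0.25 against that of all nuclear genes), and 0 were called, against 2 called lower with median-ratio scaling and 1 with quantile normalization. The smallest adjusted p was that of HCEF1, a chloroplast fructose bisphosphatase, with 721, 734 and 701 FPKM in Col-0 and 603, 557 and 637 FPKM in tpt-2 (-0.26, limma adjusted p 0.064). With median-ratio scaling HCEF1 was called (0.029), within a span of 0.029 to 0.234. Of 15 starch synthesis genes 0 were called, against 3 called lower with median-ratio scaling and 1 with quantile normalization. GBSS1, the starch synthase of amylose, had the largest change, with 57.8, 77.2 and 60.1 FPKM in Col-0 and 39.3, 28.7 and 27.1 FPKM in tpt-2, without overlap (-1.02, limma adjusted p 0.0631). APS1, the small subunit of ADP-glucose pyrophosphorylase, had -0.25 (limma adjusted p 0.0588). APS1 too was called with median-ratio scaling (0.0235), within a span of 0.0235 to 0.332. Of 17 starch breakdown genes LSF1 was called, against 2.73% of all nuclear genes tested. This starch phosphatase-like protein had 16.4, 15 and 13.4 FPKM against 11.7, 9.21 and 10 FPKM (-0.50, SE 0.095, limma adjusted p 0.0196), with 13.8% of its exon length under exons of AT3G01500 on the same strand. That call ended without the first Col-0 library (0.0633), the second Col-0 library (0.081) or the second tpt-2 library (0.0789), within a span of 0.00821 to 0.081. BAM5, a cytosolic beta-amylase, had 64.1, 60.8 and 41.3 FPKM against 30, 28.2 and 3.75 FPKM. Its groups did not overlap, but the third tpt-2 library lay far below the other mutant libraries (-1.77, SE 0.699, limma adjusted p 0.179).

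QQS is an orphan gene of Arabidopsis whose silencing is known to raise leaf starch. It had 77.5, 56.8 and 41 FPKM in Col-0 and 3.26, 2.62 and 4.74 FPKM in tpt-2. The highest mutant value lay far below the lowest Col-0 value (-3.69, SE 0.256, limma adjusted p 2.56e-05), and the highest adjusted p over the alternatives was 0.00138.

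Sugar transporters moved both ways. Of 21 genes of sucrose synthesis and sugar transport, 3 were called higher and 2 lower, against 1.77% and 0.955% of all nuclear genes tested. SWEET11, which releases sucrose for phloem loading, rose from 51.1, 58.5 and 44.7 FPKM to 74.8, 73.9 and 83.5 FPKM (0.59, SE 0.115, limma adjusted p 0.0219). SUC1, a sucrose/proton symporter, rose from 37.5, 41.7 and 38.6 FPKM to 68.3, 60.2 and 49.4 FPKM (0.57, SE 0.104, limma adjusted p 0.0163). TST1, a tonoplast sugar transporter, was the third rise at 0.39. SUC2, the symporter that loads companion cells, fell from 85.8, 97.4 and 81.2 FPKM to 61.7, 56.3 and 66.6 FPKM (-0.51, SE 0.110, limma adjusted p 0.0321). The other companion cell markers AHA3 and APL stood at -0.04 and 0.10, and neither was called. STP14, a galactose transporter, fell from 10.3, 10.7 and 10.1 FPKM to 3.88, 2.82 and 5.74 FPKM (-1.18, SE 0.214, limma adjusted p 0.0152). In the 4 genes with values given here the groups did not overlap.

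The calls of these transporters depended on single libraries, and the list kept 0 calls without the third Col-0 library, 1 without the first Col-0 library or the second tpt-2 library, 2 without the second Col-0 library, and 3 without the first or the third tpt-2 library. The adjusted p spanned 0.0174 to 0.103 for SWEET11, 0.0033 to 0.0761 for SUC1, 0.0175 to 0.125 for SUC2 and 0.00616 to 0.0676 for STP14. Of 17 sugar starvation genes measured, which are induced when sugar is short, DRM1 was called, against 2.73% of all nuclear genes tested. DRM1 rose from 14.3, 13.2 and 10.8 FPKM to 19.3, 33.4 and 26.9 FPKM (0.98, SE 0.234, limma adjusted p 0.0477). The call ended without the first Col-0 library (0.0754), the second Col-0 library (0.125), the third Col-0 library (0.182), the second tpt-2 library (0.152) or the third tpt-2 library (0.0914), and with either rescaling (0.0606 by median ratio, 0.0934 by quantiles), within a span of 0.0348 to 0.182.

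Aliphatic glucosinolates are sulfur-rich defence compounds made from methionine. Of 19 genes, all measured, 9 were called lower and 0 higher, against 0.955% and 1.77% of all nuclear genes tested. The list median was -0.30 (-0.39 against that of all nuclear genes). IPMI2, an isopropylmalate isomerase subunit of the methionine chain elongation, had 191, 197 and 197 FPKM in Col-0 and 127, 130 and 141 FPKM in tpt-2 (-0.55, SE 0.070, limma adjusted p 0.0017). FMO GS-OX1, which oxidises the side chain, had 37.1, 39.6 and 41.7 FPKM against 26.1, 30.9 and 26.9 FPKM (-0.48, SE 0.088, limma adjusted p 0.0162). CYP79F1, which starts the core structure, had 162, 178 and 157 FPKM against 114, 128 and 114 FPKM (-0.48, SE 0.078, limma adjusted p 0.00845). In all 3 genes the mutant group lay below the Col-0 group.

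MAM1, which starts chain elongation, had 253, 272 and 253 FPKM against 184, 207 and 176 FPKM (-0.46, SE 0.072, limma adjusted p 0.00749). The MYB activators of the pathway did not share the sign: MYB28 and MYB29 stood at 0.25 each (limma adjusted p 0.367 and 0.0849) and MYB76 at -0.13 (limma adjusted p 0.72). Without the second Col-0 library the list kept 2 calls and without the third Col-0 library it kept 4. It kept 6 without the first tpt-2 library or the third tpt-2 library, and 7 without the others. FMO GS-OX1 was lost without the second Col-0 library (0.0683), the third Col-0 library (0.086) or the first tpt-2 library (0.0505), within a span of 0.00604 to 0.086. CYP79F1 was lost without the second Col-0 library (0.0533), within a span of 0.00372 to 0.0533.

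In the defence and stress lists the third tpt-2 library differed from the other mutant libraries. The third tpt-2 library was the lowest of its group in 13 of 14 salicylic acid genes, 14 of 15 jasmonate genes and 9 of 11 abscisic acid and cold genes, against 34.8% of all nuclear genes. COR15A, a chloroplast cold protein, had 1303 and 1297 FPKM in the first and second tpt-2 libraries and 66.7 FPKM in the third, with 439, 387 and 447 FPKM in Col-0 between them. COR47, a dehydrin, had 18.9, 16.9 and 19.6 FPKM in Col-0 and 71.5, 85.8 and 21.2 FPKM in tpt-2. Its difference of 1.42 (SE 0.419) was not called (limma adjusted p 0.0867), but was at 0.00324 without the third tpt-2 library, the lowest of a span up to 0.249. AOC1, allene oxide cyclase of jasmonate synthesis, had 180, 180 and 35.5 FPKM in tpt-2 and 41.2, 43.3 and 73 FPKM in Col-0. Of the jasmonate and abscisic acid lists 0 genes were called in either direction. VSP1, a jasmonate-induced storage protein, had 839, 564 and 636 FPKM in Col-0 and 242, 347 and 164 FPKM in tpt-2. Its groups did not overlap, and the limma adjusted p was 0.2 at -1.48. In the fit of the 6 libraries of 18 h alone it was 0.0292, the lowest of a span up to 0.364.

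Of the 14 salicylic acid genes PR1 was called, against 2.73% of all nuclear genes tested. This secreted pathogenesis-related protein had 0.389, 1.06 and 0.895 FPKM in Col-0 and 16.6, 5.87 and 5.26 FPKM in tpt-2, or 9 to 13 fragments per library against 61 to 184. The groups did not overlap (2.37, SE 0.461, limma adjusted p 0.0208). The call ended without the first Col-0 library (0.0645), the second Col-0 library (0.0676), the third Col-0 library (0.0822) or the first tpt-2 library (0.0531), within a span of 0.0191 to 0.0822. PR2, another such protein, had 18, 14.9 and 15.3 FPKM against 65, 71.6 and 17.5 FPKM (1.39, limma adjusted p 0.332). The median of the salicylic acid list was 0.03, and -0.06 with median-ratio scaling.

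The 12 largest rises also included genes outside the lists. AT3G05945, a long non-coding RNA (chromosome 3, 11510090 to 11510510, minus strand), had 0.833, 0 and 1.53 FPKM in Col-0 and 23, 27.2 and 27.9 FPKM in tpt-2 (4.01, SE 0.320, limma adjusted p 9.99e-05). CAX3, a vacuolar calcium/proton exchanger, had 3.36, 1.77 and 2.91 FPKM against 17, 25.1 and 20.5 FPKM (2.58, SE 0.419, limma adjusted p 0.00852), and 0.0533 without the second Col-0 library, the highest of a span from 0.000483. ATSDI1, a repressor of glucosinolate synthesis induced by sulfur deficiency, had 12.9, 8.39 and 10.5 FPKM against 42.7, 29.6 and 29.2 FPKM (1.58, SE 0.221, limma adjusted p 0.0035). None of these groups overlapped.

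AT1G22690, of the gibberellin-regulated peptide family, had 19.6, 12.1 and 10.3 FPKM against 52.5, 44.2 and 74.8 FPKM (1.97, SE 0.239, limma adjusted p 0.00144). AT5G02760 (APD7), a clade D protein phosphatase, had 1.31, 0.909 and 0.733 FPKM against 5.33, 7.11 and 11.8 FPKM (2.14, SE 0.299, limma adjusted p 0.00349). EXPA8, an expansin that loosens cell walls, had 1.35, 0.446 and 0.609 FPKM against 2.7, 8.23 and 19.4 FPKM (2.33, SE 0.517, limma adjusted p 0.0366). GASA6, a gibberellin-regulated peptide, had 1.75, 2.11 and 1.15 FPKM against 3.58, 11 and 18.4 FPKM (1.95, SE 0.408, limma adjusted p 0.0292), with 22.6% of its exon length covered by exons on the opposite strand. CML41, a calmodulin-like protein, had 1.09, 2.07 and 1.22 FPKM against 11.4, 6.64 and 6.97 FPKM (1.91, SE 0.395, limma adjusted p 0.0282). These groups did not overlap, but EXPA8 and GASA6 spread over several-fold within tpt-2. The call of EXPA8 ended without any library but the first tpt-2 library (0.0583 to 0.136), that of GASA6 likewise (0.0543 to 0.129), and that of CML41 without any library but the third tpt-2 library (0.0653 to 0.114). Over the alternatives the lowest adjusted p was 0.00783, 0.00162 and 0.00463. AT2G07642, a 42-base gene model wholly under an exon of the other strand, was listed at 0 in Col-0 and held 1, 2 and 1 fragments in tpt-2, which is under the limit of 3 fragments and gives no fold.

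**Figure D4:**
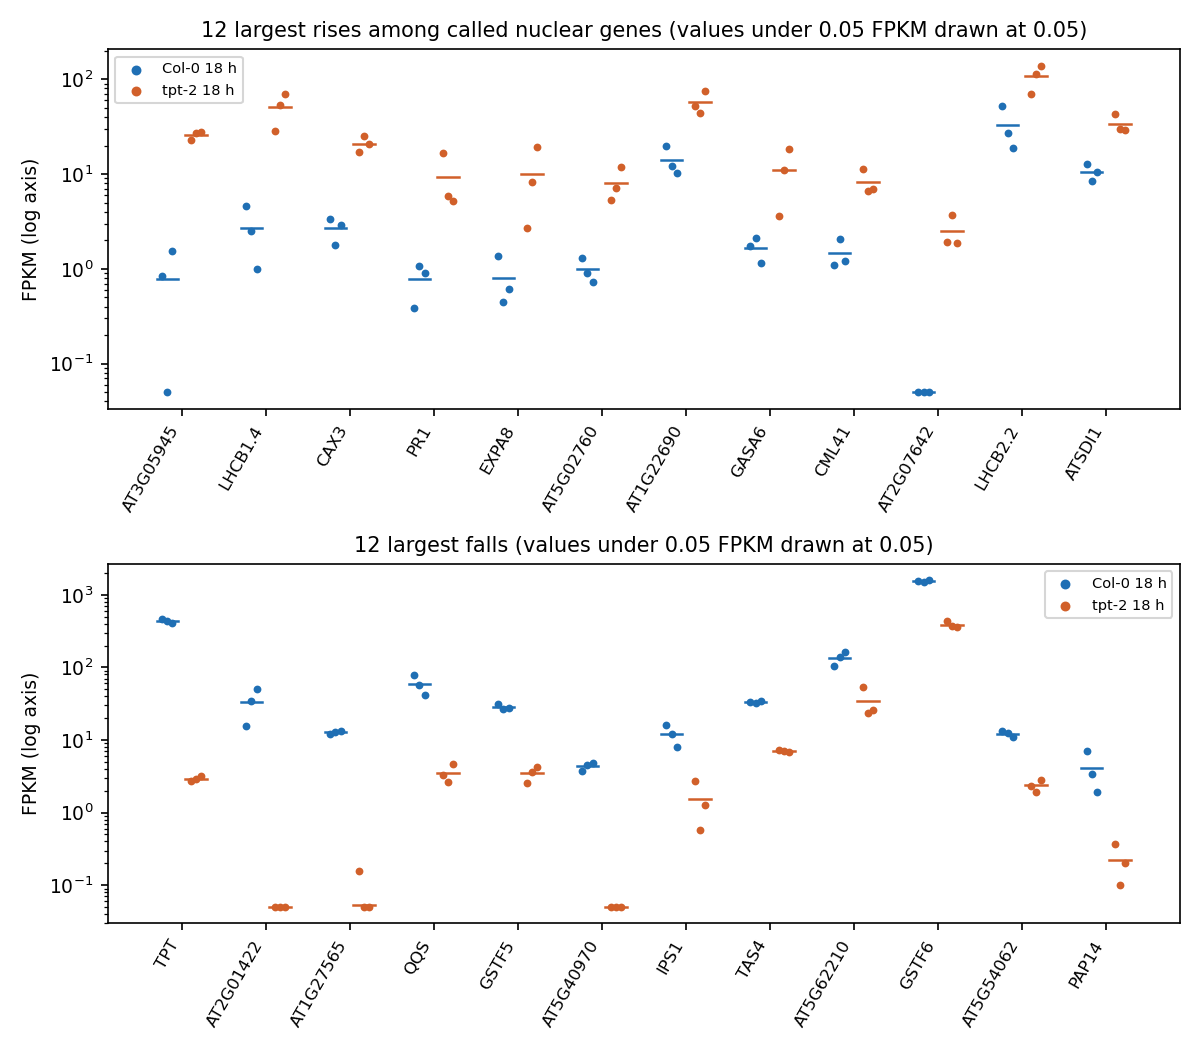
FPKM (log axis) of the 12 nuclear genes with the largest rise (top) and the 12 with the largest fall (bottom) among called genes, in each library of Col-0 and tpt-2 at 18 h; points are libraries and bars group means. The groups are apart in all 24 genes, as the rule for choosing them required, and the tpt-2 values of EXPA8 spread from 2.7 to 19.4 FPKM.

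Among the largest falls were glutathione transferases, which conjugate glutathione to other molecules. GSTF6 (AT1G02930) was abundant, with 1525, 1512 and 1574 FPKM in Col-0 and 430, 366 and 359 FPKM in tpt-2. Its groups were tight and did not overlap (tpt-2 mean 0.251 of the Col-0 mean, SE 0.415 on the log2 scale, limma adjusted p 0.0287), where the SE pools the spread of all 4 groups. In the fit of the 6 libraries of 18 h alone the adjusted p was 4.19e-05, and each fit that left out 1 library gave 0.0562 to 0.109, the whole span being 4.19e-05 to 0.109. Its neighbour GSTF5 (AT1G02940) had 31.1, 26.6 and 27.9 FPKM against 2.59, 3.62 and 4.24 FPKM (-2.73, SE 0.221, limma adjusted p 0.0001).

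The remaining large falls were less well described genes. AT5G62210 had 104, 140 and 165 FPKM in Col-0 and 53.6, 23.8 and 25.5 FPKM in tpt-2 (-2.03, SE 0.414, limma adjusted p 0.026). Its call ended without the second Col-0 library (0.0981), the third Col-0 library (0.117), the second tpt-2 library (0.0966) or the third tpt-2 library (0.0619), within a span of 0.0064 to 0.117. AT5G54062 had 13.2, 12.3 and 10.9 FPKM against 2.31, 1.93 and 2.85 FPKM (-1.97, SE 0.176, limma adjusted p 0.000197). None of these groups overlapped. A further 3 genes were at or near 0 in every tpt-2 library. The non-coding RNA AT2G01422 had 269, 307 and 410 fragments in Col-0 and 0 in each tpt-2 library, and was at least 93.2-fold lower when each tpt-2 library is set to the limit of 3 fragments. AT5G40970 had 160, 100 and 99 fragments against 0 in each, at least 30.4-fold lower on the same limit, with 48.2% of its exon length covered by exons on the opposite strand. AT1G27565 had 158, 90 and 86 fragments against 1, 0 and 0, a ratio of 0.00407 with an exact 95% counting interval of 0.000103 to 0.0228. Of its 75-base stretches 40.8% also occur in AT1G52905. With voom on recovered fragments AT2G01422 was not called (0.195, the highest of a span from 0.000417).

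Chloroplast-encoded loci were counted apart from nuclear genes. Of 97 loci 58 were called higher (59.8%) and 0 lower, all 97 had positive values, and in 90 (92.8%) the groups did not overlap. The other 39 loci were not called, among them ATCG00780 with 13.5, 7.6 and 13.8 FPKM in Col-0 and 15.9, 14.8 and 11.2 FPKM in tpt-2 (0.27, limma adjusted p 0.69). The median log2 fold change was 2.48. The limit of 1 FPKM was a mean over both genotypes and kept 97 of 133 chloroplast-encoded loci. Some loci near 0 in Col-0 passed it through tpt-2 alone. ATCG00460, for 1, had 0 in each Col-0 library and 8.92, 22.4 and 13.9 FPKM in tpt-2. The shares and the median are thus partly set by the filter. Without that limit, the FPKM of all 133 loci summed to 420, 372 and 345 in the Col-0 libraries. In the tpt-2 libraries the sums were 3178, 4554 and 2307. The mutant sums were several times the Col-0 sums, with no overlap. Fragments outside nuclear genes were nevertheless few: 0.066%, 0.064% and 0.060% of the depth in Col-0 and 0.241%, 0.321% and 0.184% in tpt-2. Libraries made with poly-T beads hold mainly polyadenylated RNA, so these values measure the part of chloroplast RNA that such beads keep. Whether chloroplast RNA was polyadenylated or carried over in these libraries was not tested.

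The largest called rise was that of ATCG00290, with 0, 0.803 and 1.76 FPKM in Col-0 and 110, 142 and 56.7 FPKM in tpt-2 (5.83, SE 0.814, limma adjusted p 0.0035). ATCG00020 had 6.53, 6.4 and 4.87 FPKM against 384, 562 and 271 FPKM (5.82, SE 0.519, limma adjusted p 0.000197). ATCG00490 had 4.44, 3.9 and 4.71 FPKM against 296, 413 and 202 FPKM (5.78, SE 0.529, limma adjusted p 0.000229). In each of them the second tpt-2 library was highest and the third lowest, the order of the sums. ATCG00450 had 16.1, 5.91 and 16.1 FPKM against 198, 268 and 186 FPKM (4.09, SE 0.562, limma adjusted p 0.00323). ATCG01020 was unlike them, with 65.2, 57.1 and 52.3 FPKM against 75.3, 104 and 67 FPKM, a difference of 0.47 (limma adjusted p 0.2). Of 8 mitochondrion-encoded loci 4 were called higher (50%), with a median over the 8 of 0.77. The limit on the mean over both genotypes kept these 8 of 152 mitochondrion-encoded loci. The share and the median describe the 8 only and are partly set by that filter. The 13 measured nuclear genes of the plastid RNA polymerases and RNA-processing enzymes gave 0 calls, with 12 negative values and a median of -0.17. PNP, the plastid polynucleotide phosphorylase that degrades polyadenylated RNA, had 36.3, 43.4 and 41.6 FPKM against 29.6, 30.7 and 33.1 FPKM (-0.36, limma adjusted p 0.122). Counts of organelle loci called were 29 without the second Col-0 library, 31 without the third Col-0 library, 32 without the second tpt-2 library, 39 without the first Col-0 library and 41 without the first tpt-2 library, against 62 with all libraries.

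**Figure D5:**
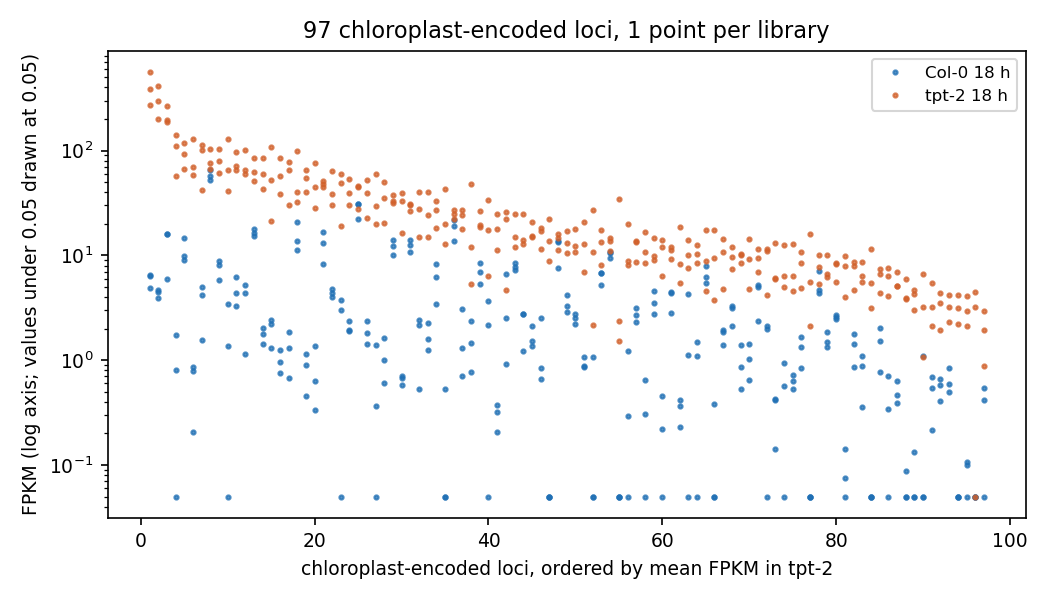
FPKM (log axis) of the 97 chloroplast-encoded loci in each library at 18 h, ordered along the horizontal axis by their mean in tpt-2, with 1 point per locus and library and values under 0.05 drawn at 0.05. The tpt-2 points lie above the Col-0 points for 90 loci, while loci such as ATCG01020, at 52.3 to 65.2 against 67 to 104 FPKM, lie close together. Loci near 0 in Col-0 could pass the limit on the mean over both genotypes through tpt-2 alone.

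The genotype effect at 18 h was set against that at 9 h with the interaction term of the same fit. That term was called in 840 nuclear genes (4.81%), positive in 427 (2.44%) and negative in 413 (2.36%). Of the 477 genes called at 18 h, 105 had a called interaction. In 85 of them the difference was larger at 18 h or of opposite sign at 9 h. In the other 20 it had the same sign at both times and was smaller at 18 h. The 477 were chosen by their call at 18 h, which favours differences larger at that time. Of the 477, 227 were also called at 9 h in the same direction and 19 in the opposite one, where 3756 nuclear genes (21.5%) were called at 9 h. Late anthocyanin genes with a called interaction are given first. DFR stood at -4.43 at 9 h and -1.39 at 18 h, an interaction of 3.04 (limma adjusted p 0.00115), and 9 of the 11 late anthocyanin genes had a called interaction. PAP1, not called at 18 h, had an effect of -2.52 at 9 h and an interaction of 2.02 (limma adjusted p 0.00329). MIR828 stood at 0.16 at 9 h and -1.70 at 18 h (interaction -1.86, limma adjusted p 0.0241), and GSTF5 at -0.61 and -2.73 (interaction -2.13, limma adjusted p 0.00546). STP14 changed sign, from 1.27 at 9 h to -1.18 at 18 h (interaction -2.46, limma adjusted p 0.00235). No light-harvesting gene and no chloroplast-encoded locus had a called interaction. At 9 h the FPKM of chloroplast-encoded loci summed to 22528 in tpt-2 replicate 3, against 4169 and 4082 in replicates 1 and 2. The fit pools the spread of all 4 groups, so this library enters the SE of these loci at both times. For them, the lack of a called interaction does not show that the effect was equal at 9 h and 18 h. Several of the largest changes of nuclear genes had no called interaction either and were also called at 9 h with the same sign. At 9 h AT3G05945 stood at 4.37, QQS at -2.98, AT2G01422 at -3.83, AT1G27565 at -4.29 and AT5G40970 at -2.38. The interaction count was 273 to 1175 when 1 library of 18 h was left out, and 294 without the first Col-0 library, 285 without the first tpt-2 library, 273 without the second Col-0 library, 544 without the third Col-0 library and 490 without the second tpt-2 library. Of the libraries of 9 h, leaving out the second tpt-2 library gave 299, the first tpt-2 library gave 469 and the second Col-0 library gave 532.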

How the data were processed

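The authors deposited a table of FPKM for each gene in each library. Per the submitters' processing notes the tools were CASAVA, HISAT2 2.0.5, featureCounts 1.5.0-p3 and DESeq2 1.20.0, with the TAIR10 build; the strand setting and the annotation are not given in the sources used here. Per the labels' protocols, RNA was purified with poly-T beads and the libraries were directional. All 12 value columns were matched to samples by title, and 0 were left unused. The series' design text calls the 3 replicates of each group biological, without naming plants or pools.

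From these values log2(FPKM + 1) was computed and fitted in limma 3.58.1 (R 4.3.3; lmFit, contrasts.fit, eBayes with trend) over all 12 libraries, with the 4 groups as 1 factor. FPKM are not counts, so the count test served only as an alternative. All tests were two-sided, with Benjamini-Hochberg adjustment across the 17586 genes, and adjusted p under 0.05 was called. The method was tested on simulated fragments, with the same setting of replicate spread for every gene and no deviating library. That test does not cover a library that stands apart, as the third tpt-2 library did. Whole fragments were recovered with the mean transcript length of the RefSeq annotation (TAIR10.1), within 0.05 of a whole number, and 3 fragments were the limit of detection. Intervals on fragments are exact binomial at 95% and cover counting error only. Within each group of 18 h no gene had the same value above 0 in a pair of libraries.

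All 32548 nuclear identifiers matched RefSeq, and the 285 organelle loci did not match and are named by locus. The members and lists were chosen with earlier results of these data known. Genes named singly are 8 fixed genes, the 12 largest rises and falls among called nuclear genes whose groups do not overlap, up to 4 called members of each list (or the 1 of smallest p), and the organelle loci of largest rise or highest level; other genes were named after their values were seen. Alternatives were other fits, filters, scalings, pseudocounts, voom on recovered fragments, a replicate block and leaving out single libraries. Same-numbered libraries did not deviate together, so the numbers were not used as pairs, though samples handled in matched sets are not excluded.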

Additional observations from a re-analysis of the deposited data

Results flagged for a closer look

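The genotype effect at 18 h differed from that at 9 h, by the interaction term of the limma fit over 12 libraries, in 26 of the genes named. The term was called in 840 of 17481 nuclear genes tested (4.81%). Many of the named genes were chosen by their calls at 18 h or after their values were seen, so the 26 is a description only. Positive values mean that the tpt-2 minus Col-0 difference was higher, or less negative, at 18 h. Among anthocyanin and flavonoid genes the interaction on the log2 scale was 3.04 for DFR, 2.72 for LDOX, 2.39 for UGT75C1, 2.35 for F3'H, 2.02 for PAP1, 1.66 for 3AT1, 1.25 for TT8, 1.08 for 3AT2 and 0.82 for UGT78D1. The repressor CPC went the other way with -1.21, and so did the MIR828 precursor with -1.86. GPT2 had 2.11, ATSDI1 1.89, AT1G22690 1.54, the glutamine synthetase gene GLN1;1 0.76, the nitrate reductase gene NIA2 0.75 and SUC1 0.63. The starch synthase gene GBSS1 had 1.73, TST1 0.54 and MYB29 0.53. STP14 had -2.46, GSTF5 -2.13, DRM1 -1.38, AT5G54062 -1.10 and GSA1 -0.31. AT2G07642 had 1.77, on at most 2 fragments in a library of 18 h.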

How the results depend on the processing

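Of 477 nuclear calls at 18 h, 310 higher and 167 lower, the totals were 292 and 161 higher without a filter on low values. Median-ratio scaling gave 126 higher and 331 lower, quantile normalization 118 and 251. A 2-fold minimum left 107 nuclear calls and 189 of 840 interaction calls. Same-numbered libraries deviated weakly in opposite directions (r of -0.126, -0.101 and -0.175), and no tpt-2 library correlated best with its own number. The numbers were therefore not used as pairs. Such r, taken about the mean of each small group, cannot exclude that samples were handled in matched sets. A replicate block gave 142 nuclear calls, 73 higher and 69 lower, and 81 interaction calls. Without 1 library of 18 h, nuclear calls ranged from 93 to 388 (36 to 260 higher, 54 to 128 lower), organelle calls from 29 to 58 and interaction calls from 273 to 1175. Leaving out 1 library of 9 h, chosen after seeing the data, gave 299 to 872 interaction calls. The cause was not tested. With both scalings calls were thus more often lower than higher, the reverse of the main split. None of the 76 genes followed singly through the alternatives changed sign. Of these, 64 were called: 31 held without each library of 18 h and 33 lost the call without at least 1. Other genes named in the text, such as TTG1 and MEX1, were not followed in this way. List medians near the overall 0.09 changed sign with scaling or a library: heat shock (-0.05 by quantiles), salicylic acid (-0.06 by median ratio), type-A regulators (-0.07 by quantiles), sucrose and transport (0.02 without Col-0 replicate 2). Genes near 1 FPKM rest on few fragments, and organelle lengths were not used here, so their fragments are not known.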

Other observations

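Clock and nitrogen genes, which the comparison above leaves aside, had medians of 0.20 and 0.35, where that of all nuclear genes was 0.09. Of 15 clock genes LUX was called, against 2.73% of all nuclear genes tested. LUX, an evening complex member, rose from 20.9, 16.7 and 17.6 FPKM to 24.4, 26.1 and 29.9 FPKM (0.52, SE 0.093, limma adjusted p 0.0138), with 17.8% of its exon length covered by exons on the opposite strand. Its adjusted p was 0.0714 without Col-0 replicate 2 and 0.0753 without Col-0 replicate 3, within a span of 0.0111 to 0.0772. The morning gene LHY had 14.7, 14.3 and 19.2 FPKM against 11.6, 12.2 and 7.95 FPKM (-0.57, limma adjusted p 0.0769), while the evening gene GI had 0.67 (limma adjusted p 0.0633). Of 8 nitrogen assimilation genes 0 were called. Their median was 0.35, the nitrate reductase gene NIA2 standing at 0.34 (limma adjusted p 0.0935) and the cytosolic glutamine synthetase gene GLN1;1 at 0.44 (limma adjusted p 0.0764). Of 8 type-A response regulators, which report cytokinin signalling, 0 were called. ARR5 stood at 0.30 (limma adjusted p 0.292).

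On each nuclear chromosome 2.63% to 2.88% of the genes tested were called. Within 1 Mb of TPT, 11 of 318 genes were called, or 3.46%, with TPT itself counted among them. By class of gene, 306 protein-coding genes were called higher and 162 lower out of 17033, while 170 long non-coding RNAs gave 1 call, the rise of AT3G05945.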
